A study of Mus musculus with 2 samples.

Results

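The comparison is between 63.3 cells, a mouse acute myeloid leukemia line, after 6 h with brequinar and the same cells 6 h after beta-estradiol was taken away, set against each other directly and not through a 0 h control. It holds the 1253 cells that carried the barcode of the brequinar culture and the 1252 cells that carried the barcode of the withdrawal culture, 2505 of the 12540 cells of the series that were called to a condition. Before treatment both cultures grew in medium with 0.5 µM beta-estradiol and with stem cell factor from conditioned medium of a hamster cell line. The brequinar culture received 2 µM brequinar for 6 h. The withdrawal culture was washed in PBS and kept for 6 h in medium without estrogen. The labels give the wash for withdrawal alone, so an effect of washing and one of losing estrogen cannot be told apart here. They do not say whether the other cultures received solvent. Each condition was 1 culture, so no test was made and no difference below is checked by replicates. Intervals are exact, at 95%, and reflect the error of counting alone.

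Brequinar inhibits dihydroorotate dehydrogenase, the mitochondrial enzyme that carries out a step of pyrimidine synthesis, and starves cells of uridine and cytidine nucleotides. Estradiol is used in myeloid progenitor lines whose immature state depends on HOXA9 fused to the hormone-binding part of the estrogen receptor, where removing the hormone stops HOXA9 activity and lets the cells mature. The labels do not name the estradiol-responsive protein of the 63.3 line. HOXA9 works on DNA with MEIS and PBX partners and keeps genes such as Meis1, Sox4, Myb and Flt3 active in progenitors.

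The cultures were told apart by DNA barcodes anchored in the cell membrane with a lipid (MULTI-seq) and were pooled before loading for droplet RNA sequencing. The 8-base tags below therefore decide which of the 2 groups a cell belongs to, and they differed at 6 positions. Capitals mark the whole tag.
Brequinar 6 h: GCACACGC
Withdrawal 6 h: GTAGCACT
The fewest differences between any pair of the 10 tags of the series was 4.

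The promoters of the genes with the largest differences are shown because motifs bound by HOX proteins, MYC, STAT factors and the estrogen receptor can be looked for in them. Each is the 250 bases before a start site, taken from RefSeq on GRCm38.p6 and written 5′ to 3′ on the strand of the gene. Ebf1 (chr11:44617850-44618099, plus strand) and Hlf (chr11:90390918-90391167, minus strand) had the largest ratios in favour of brequinar among the genes named by rule, and neither window holds any of the 4 motifs. Dab2 (chr15:6299539-6299788, plus strand) has a STAT motif in capitals that begins at base -72. Pim1, the gene with the lowest ratio, has an E-box in capitals at base -58 of its downstream start site (chr17:29492835-29493084, plus strand). Chil3 (chr3:106167565-106167814, minus strand) has a HOX motif at base -203 and at base -172 a STAT motif of the same 9 letters as in Dab2, both in capitals.
Ebf1: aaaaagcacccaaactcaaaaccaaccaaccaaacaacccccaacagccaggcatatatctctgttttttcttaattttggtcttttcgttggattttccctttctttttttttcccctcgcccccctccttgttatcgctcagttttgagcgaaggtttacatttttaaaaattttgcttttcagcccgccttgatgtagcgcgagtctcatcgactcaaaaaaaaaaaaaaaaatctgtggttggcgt
Hlf: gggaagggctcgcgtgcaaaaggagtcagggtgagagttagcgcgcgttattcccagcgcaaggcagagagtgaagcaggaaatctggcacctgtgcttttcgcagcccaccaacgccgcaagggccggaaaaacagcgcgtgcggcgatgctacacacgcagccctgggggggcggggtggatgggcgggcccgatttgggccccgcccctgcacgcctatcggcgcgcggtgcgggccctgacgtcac
Dab2: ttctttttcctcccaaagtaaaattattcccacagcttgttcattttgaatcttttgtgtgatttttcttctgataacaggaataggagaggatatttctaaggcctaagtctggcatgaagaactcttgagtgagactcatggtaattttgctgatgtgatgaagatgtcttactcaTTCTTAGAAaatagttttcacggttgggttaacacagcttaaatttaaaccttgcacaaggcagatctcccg
Pim1: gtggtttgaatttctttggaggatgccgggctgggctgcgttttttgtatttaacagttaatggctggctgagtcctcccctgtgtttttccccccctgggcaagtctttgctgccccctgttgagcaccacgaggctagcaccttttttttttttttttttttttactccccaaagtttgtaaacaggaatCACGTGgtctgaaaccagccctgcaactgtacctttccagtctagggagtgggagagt
Chil3: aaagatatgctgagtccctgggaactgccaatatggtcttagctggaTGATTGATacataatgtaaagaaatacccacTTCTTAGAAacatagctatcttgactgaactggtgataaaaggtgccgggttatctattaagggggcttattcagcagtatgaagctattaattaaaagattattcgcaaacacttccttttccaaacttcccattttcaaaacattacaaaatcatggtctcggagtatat
The motifs searched on both strands were TGATTNAT for HOX with a PBX or MEIS partner, CACGTG for the E-box, GGTCA and TGACC set 3 bases apart for the estrogen receptor and TTCNNNGAA for STAT. None of the printed matches overlapped another. Of the 33 genes at least 2-fold higher with brequinar, 26 had a promoter in the table, of which 0 held the HOX motif, 0 the E-box, 0 the estrogen receptor motif and 2 (7.69%) the STAT motif. Of the 9 genes at least 2-fold lower, 8 had a promoter, of which 1 (12.5%, Pim1) held the E-box and 0 any of the others. Of the 91 genes with a promoter among the 112 at least 1.5-fold higher, 0% held the HOX motif and 0% the estrogen receptor motif. The E-box was held by 7.69% of them and the STAT motif by 8.79%. Of the 64 genes with a promoter among the 85 at least 1.5-fold lower, 2 (3.12%) held the HOX motif and 0% the estrogen receptor motif. The E-box was held by 9.38% of these and the STAT motif by 10.9%. Among the 4737 measured genes with a promoter, 1.18% held the HOX motif, 11.1% the E-box, 0% the estrogen receptor motif and 6.57% the STAT motif. Of the 32851 promoters in the table, 2.82%, 6.02%, 0.0639% and 7.02% held the HOX, E-box, estrogen receptor and STAT motifs. A match is a description of letters in this window, and enhancers were not examined.

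Depth was close in the cultures compared. The brequinar culture summed to 13124084 unique molecule counts (UMIs, each 1 captured RNA molecule) with a median of 11301 per cell, and the withdrawal culture to 12088111 with a median of 10695. Cells with at least 10% mitochondrial UMIs were 16.2% in the brequinar culture and 22.2% in the withdrawal culture. Levels are given as counts per 1000000 UMIs (CPM) of the summed spliced counts of a culture, on which 3 counts stand at 0.229 CPM with brequinar and 0.248 CPM with withdrawal. Both cultures had RNA of primary granule genes at high levels, 17667 CPM in sum with brequinar and 17700 CPM with withdrawal. Other myeloid lists summed to less. The neutrophil maturation list had 1044 CPM with brequinar and 1312 CPM with withdrawal. In the same order, the eosinophil, mast cell and basophil list had 1575 and 1839 CPM and the monocyte and macrophage list 590 and 480 CPM. Ctsg and Prtn3, proteases of the primary granule, stood at 4208 and 1651 CPM with brequinar and at 4018 and 1658 CPM with withdrawal. Mpo, the granule peroxidase, stood at 855 CPM with brequinar and 1019 CPM with withdrawal. Itgam, a surface integrin of mature myeloid cells, had 1 count with brequinar and 0 with withdrawal. None of the 15 genes of the T and NK list was measured, with summed levels of 15.6 CPM with brequinar and 21.9 CPM with withdrawal and 8 genes, Cd3e among them, at 0 in both. The 16 B lineage genes other than Ebf1 summed to 169 CPM with brequinar and 208 CPM with withdrawal.

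Few genes differed by 1.5-fold or more at 6 h. Of 5882 genes that reached 20 CPM in at least 1 of the cultures (called measured below), 112 were at least 1.5-fold higher with brequinar, which is 1.9% of them, and 85 were at least 1.5-fold lower, which is 1.45%. At 2-fold the counts were 33 genes higher (0.561%) and 9 lower (0.153%). The upper tail was longer, since 13 genes were at least 3-fold higher and 0 were at least 3-fold lower. The counting interval lay wholly above 1.5-fold for 57 of the 112 genes and wholly beyond 1.5-fold for 27 of the 85. Smaller differences were common: the counting interval lay above a ratio of 1 for 1342 measured genes (22.8%) and below it for 1304 (22.2%). The 0 h cultures of both series, compared with each other in the same way, gave 0 genes higher and 3 lower (0.0546% of 5490). The log2 ratios had an SD across genes of 0.23 at 6 h and 0.06 at 0 h, so the 6 h cultures were farther apart than the 0 h cultures were. In cells under 10% mitochondrial UMIs alone, 111 genes were higher and 78 lower at 6 h.

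**Figure D1:**
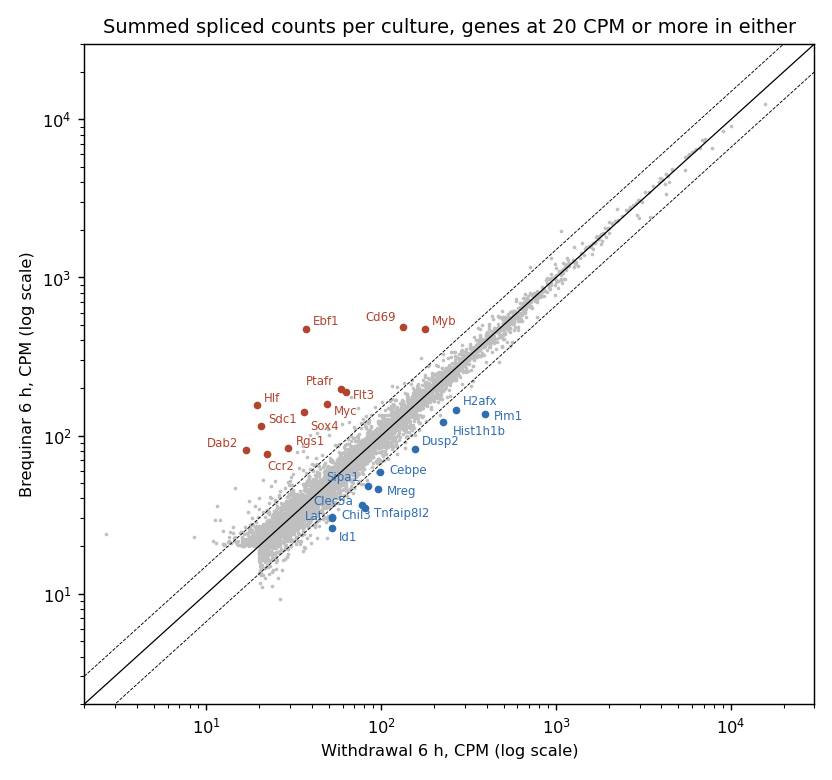
Level of each of the 5882 measured genes in the brequinar 6 h culture (vertical axis, CPM, log scale) against the withdrawal 6 h culture (horizontal axis, CPM, log scale). The solid line marks equal levels and dashed lines 1.5-fold, with the 12 highest named genes in red and the 12 lowest in blue. Most genes lie between the dashed lines, and most red genes stand farther from the solid line than the blue ones. Pim1 (blue) stands farther from it than Rgs1 and Myb (red).

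The 0 h cultures show on which side a difference lay, and they serve here as levels beside the direct comparison. Of the 112 genes higher with brequinar, 73 were at least 1.5-fold below their own 0 h culture after withdrawal, and in 54 of these the brequinar culture was within 1.5-fold of its 0 h culture. In 25 of the 112 the brequinar culture was at least 1.5-fold above its 0 h culture, and in 5 of these the withdrawal culture was also below its own. Neither culture had moved by 1.5-fold in 19. Of the 85 genes lower with brequinar, 46 were at least 1.5-fold above 0 h after withdrawal, 14 were at least 1.5-fold below 0 h with brequinar, and 25 were within 1.5-fold in both. Most of the genes higher with brequinar were thus genes whose level after withdrawal was low against 0 h. Across all genes measured, 4.97% were that low after 6 h of brequinar and 8.11% after 6 h of withdrawal, while 8.82% and 12.3% were at least 1.5-fold above 0 h.

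Ebf1, Hlf, Sox4, Myc and Myb were the transcription factors among the 12 highest genes. Ebf1, the factor that commits lymphoid progenitors to the B lineage, had the largest ratio, with 472 CPM with brequinar and 36.9 CPM with withdrawal, a ratio of 12.8 (11.6 to 14.1). Its 0 h levels were 461 CPM in the brequinar series and 426 CPM in the withdrawal series, so its level with brequinar was close to that at 0 h. In the free RNA of near-empty droplets it stood at 179 CPM, and its log2 ratio was 3.84 when 5% of the UMIs of a culture was taken off as such RNA, against 3.51 as counted. Hlf, a leucine zipper factor of hematopoietic stem cells, stood at 155 CPM with brequinar and 19.4 CPM with withdrawal, a ratio of 8.01 (6.99 to 9.21). At 0 h it had 188 CPM in the brequinar series and 194 CPM in the withdrawal series. Sox4, an HMG-box factor active in progenitors and leukemia, followed the same order, with 140 CPM with brequinar, 36.3 CPM with withdrawal, and 0 h levels of 148 and 140 CPM (brequinar series first). Its ratio was 3.86 (3.48 to 4.30).

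Myc and Myb, which drive growth and hold progenitors immature, were also higher with brequinar. Myc stood at 159 CPM with brequinar and 49.0 CPM with withdrawal, a ratio of 3.25 (2.96 to 3.56), with 219 CPM at 0 h in the brequinar series and 214 CPM in the withdrawal series. Both 6 h levels of Myc were below 0 h, that after withdrawal by 4.37-fold and that with brequinar by 1.38-fold. Myb stood at 472 CPM with brequinar and 178 CPM with withdrawal, a ratio of 2.65 (2.52 to 2.79), with 476 and 480 CPM at 0 h in the brequinar and withdrawal series. Meis1, the DNA-binding partner of HOXA9, differed in another way. It had 79.0 CPM with brequinar and 32.9 CPM with withdrawal, a ratio of 2.40 (2.14 to 2.70), and 41.6 and 42.1 CPM at 0 h in the brequinar and withdrawal series, so that the brequinar culture stood above both 0 h cultures. Hoxa9 itself was not among the genes higher with brequinar: it stood at 98.4 CPM with brequinar and 128 CPM with withdrawal, a ratio of 0.769 (0.713 to 0.828). Whether those counts come from the chromosomal gene or from a transgene cannot be told from the files. Esr1, the estrogen receptor gene, was under 20 CPM, at 5.49 CPM with brequinar and 6.78 CPM with withdrawal.

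Flt3, Ptafr, Ccr2 and Cd69 were receptors among the 12, and Kit was a fixed gene outside them. Flt3, the receptor tyrosine kinase of early progenitors, stood at 190 CPM with brequinar and 62.9 CPM with withdrawal, a ratio of 3.02 (2.78 to 3.28). At 0 h it had 90.8 CPM in the brequinar series and 89.0 CPM in the withdrawal series, so the level with brequinar was 2.09-fold its own 0 h level. Kit, the stem cell factor receptor, stood at 110 CPM with brequinar and 49.6 CPM with withdrawal, a ratio of 2.21 (2.01 to 2.43), beside 121 CPM in both 0 h cultures. The difference in Kit thus lay on the withdrawal side. Ptafr, the receptor for platelet-activating factor, stood at 197 CPM with brequinar and 59.1 CPM with withdrawal, a ratio of 3.34 (3.07 to 3.63), with 71.8 and 76.3 CPM at 0 h in the brequinar and withdrawal series. Ccr2, the chemokine receptor of monocytes and their precursors, stood at 76.8 CPM with brequinar and 22.2 CPM with withdrawal, a ratio of 3.46 (3.03 to 3.98), with 94.97 and 92.5 CPM at 0 h. Cd69, a lectin-like early activation antigen, stood at 488 CPM with brequinar and 134 CPM with withdrawal, a ratio of 3.65 (3.46 to 3.86). Its 0 h levels, 305 CPM in the brequinar series and 301 CPM in the withdrawal series, lay between the 6 h levels.

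Sdc1, Dab2 and Rgs1 complete the 12 highest genes. Sdc1, a heparan sulfate proteoglycan, stood at 115 CPM with brequinar and 20.4 CPM with withdrawal, a ratio of 5.61 (4.90 to 6.44), beside 88.9 and 94.2 CPM at 0 h in the brequinar and withdrawal series. Dab2, an adaptor of clathrin-mediated uptake, stood at 80.8 CPM with brequinar and 16.8 CPM with withdrawal, a ratio of 4.81 (4.14 to 5.62), beside 31.7 and 30.0 CPM at 0 h. Rgs1, which shortens signaling from G proteins, stood at 83.1 CPM with brequinar and 29.4 CPM with withdrawal, a ratio of 2.83 (2.51 to 3.20), beside 37.4 and 41.2 CPM at 0 h. Dab2 and Cd69 were the members of the 12 at least 1.5-fold above 0 h with brequinar and at least 1.5-fold below 0 h with withdrawal. In all, 5 of the 12 were at least 1.5-fold above 0 h with brequinar and 9 were at least 1.5-fold below 0 h with withdrawal. Just outside the 12 stood Cd33, a lectin of myeloid cells, with 174 CPM with brequinar and 67.2 CPM with withdrawal, a ratio of 2.60. Myo16, an unconventional myosin too low for the rule and named after its values were seen, had 314 counts with brequinar and 32 with withdrawal, a ratio of 9.04 (6.27 to 13.4).

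**Figure D2:**
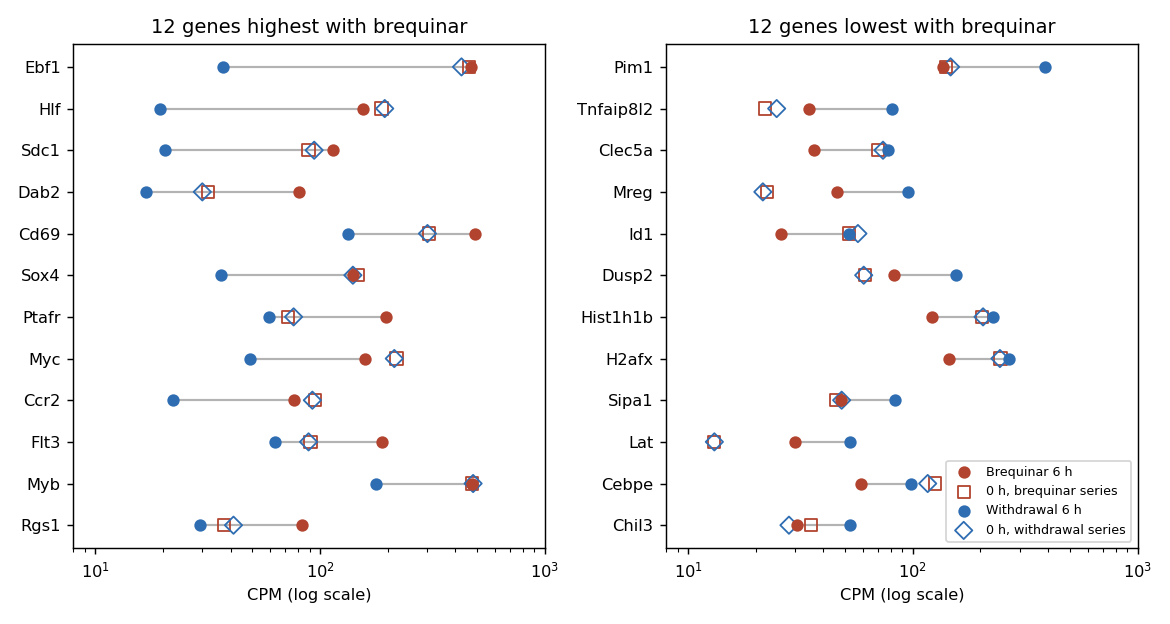
Levels of the 12 highest genes (left panel) and the 12 lowest genes (right panel) in each culture, in CPM on a log scale, with filled circles for the 6 h cultures (brequinar red, withdrawal blue) and open symbols for the 0 h culture of each series. For Ebf1, Hlf, Sox4 and Myb the brequinar circle lies at or near the open symbols and the withdrawal circle far to the left, while for Pim1 the withdrawal circle lies far to the right.

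At the lower end stood Pim1, a serine/threonine kinase that cytokines induce through STAT factors. It had 136 CPM with brequinar and 389 CPM with withdrawal, 2.85-fold lower with brequinar (2.70 to 3.01), and 140 and 147 CPM at 0 h in the brequinar and withdrawal series. The brequinar culture therefore stood at the 0 h level and the withdrawal culture 2.64-fold above it. In free RNA Pim1 stood at 660 CPM, above each of these levels. Its log2 ratio ran from -1.74 to -1.44 over the settings tried. Tnfaip8l2, a brake on innate immune signaling, and Mreg, a protein of vesicle transport, were above 0 h in both cultures, more so after withdrawal. Tnfaip8l2 stood at 34.7 CPM with brequinar and 80.5 CPM with withdrawal (21.97 and 24.8 CPM at 0 h, in the brequinar and withdrawal series), and Mreg at 45.8 CPM with brequinar and 95.4 CPM with withdrawal (22.5 and 21.5 CPM at 0 h). Lat, a signaling adaptor of T cells and mast cells, had 29.9 CPM with brequinar and 52.5 CPM with withdrawal, with 13.1 CPM in both 0 h cultures. Dusp2, a MAP kinase phosphatase, had 82.3 CPM with brequinar and 155 CPM with withdrawal, beside 61.1 and 60.5 CPM at 0 h. Sipa1, which switches off the GTPase Rap, had 47.9 CPM with brequinar and 83.7 CPM with withdrawal, beside 45.6 and 48.3 CPM at 0 h.

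For another set of the low genes the difference lay on the brequinar side. Clec5a, an activating lectin receptor of myeloid cells, stood at 36.3 CPM with brequinar and 77.7 CPM with withdrawal, beside 69.9 and 73.7 CPM at 0 h in the brequinar and withdrawal series. Id1, an inhibitor of helix-loop-helix factors, stood at 25.9 CPM with brequinar and 52.1 CPM with withdrawal, beside 52.0 and 57.0 CPM at 0 h. Cebpe, the factor of terminal granulocyte maturation, stood at 58.9 CPM with brequinar and 98.1 CPM with withdrawal, beside 126 and 117 CPM at 0 h. In these genes and in the histone genes Hist1h1b and H2afx, 5 of the 12 in all, the brequinar culture was at least 1.5-fold below its 0 h culture. Chil3, a chitinase-like protein of neutrophils and macrophages, closes the 12, with 30.6 CPM with brequinar and 52.4 CPM with withdrawal, 1.71-fold lower with brequinar (1.51 to 1.95). The 2% of cells richest in granule genes held 41.2% of its UMIs with brequinar and 57.5% with withdrawal. Its log2 ratio was -0.69 as counted and -0.25 without those cells. In free RNA it stood at 542.5 CPM, above both cultures, and its log2 ratio was -1.87 with 5% of UMIs taken off as such RNA. Just outside the 12 was Cd52, a small glycoprotein of leukocytes, with 83.4 CPM with brequinar and 137 CPM with withdrawal.

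Gene lists were read by counts of measured members at 1.5-fold and by the median log2 ratio (taken on CPM + 5), beside a median of -0.00144 over all measured genes. Each count of list members stands beside 1.9% of all measured genes higher and 1.45% lower at 1.5-fold. Of the 44 lists, 22 had measured members but 0 at 1.5-fold in either direction, or 344 measured genes in all. Among the 19 of these with at least 4 measured members, medians ran between -0.20 and 0.17. They were the lists of pyrimidine synthesis, purine synthesis, deoxynucleotide supply, UDP sugars, tRNA synthetases, transcription elongation, fork repair, S phase, ribosomal proteins, NF-kB targets, heat shock, ER stress, cholesterol synthesis, glycolysis, oxidative phosphorylation, interferon response, MHC class I presentation, primary granule and phagocyte function. The erythroid, megakaryocyte and dendritic cell lists had 2, 1 and 2 measured members. The lists held a minority of the genes counted above, since 86 of the 112 and 57 of the 85 were in no list.

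The HOXA9 target list stood highest. Of its 16 measured members 8 were at least 1.5-fold higher with brequinar and 3 lower, beside 1.9% and 1.45% of all measured genes. Its median log2 ratio was 0.57. The members were chosen with earlier results of these data known, so these values describe the list and add nothing on the direction. The higher members included Sox4, Flt3, Myb and Meis1 above, together with Angpt1, a ligand of the TIE2 receptor. Angpt1 stood at 29.3 CPM with brequinar and 11.3 CPM with withdrawal, both below the 71.4 and 70.8 CPM of the 0 h cultures. The lower ones were Pim1 and a pair of transcription regulators. Id2, an inhibitor of helix-loop-helix factors, stood at 12.6 CPM with brequinar and 25.6 CPM with withdrawal, and Ikzf2, an Ikaros family factor, at 14.4 CPM with brequinar and 24.9 CPM with withdrawal. The list of HOX cofactors and progenitor factors split: of 16 measured, 4 were higher (Hlf, Sox4, Myb and Meis1) and 2 lower (Ikzf2 and Gata2), with a median of -0.14. Gata2, a factor of stem and mast cells, had 30.6 CPM with brequinar and 47.2 CPM with withdrawal. The progenitor receptor list split in the same manner, with 3 of 13 higher, 2 lower and a median of -0.06. Csf2rb, the shared chain of the GM-CSF and IL-3 receptors, was lower, at 27.3 CPM with brequinar and 41.5 CPM with withdrawal. Cd34, a sialomucin of progenitors, was within 1.5-fold, at 337 CPM with brequinar and 258 CPM with withdrawal, and both levels exceeded the 142 and 138 CPM of the 0 h cultures.

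**Figure D3:**
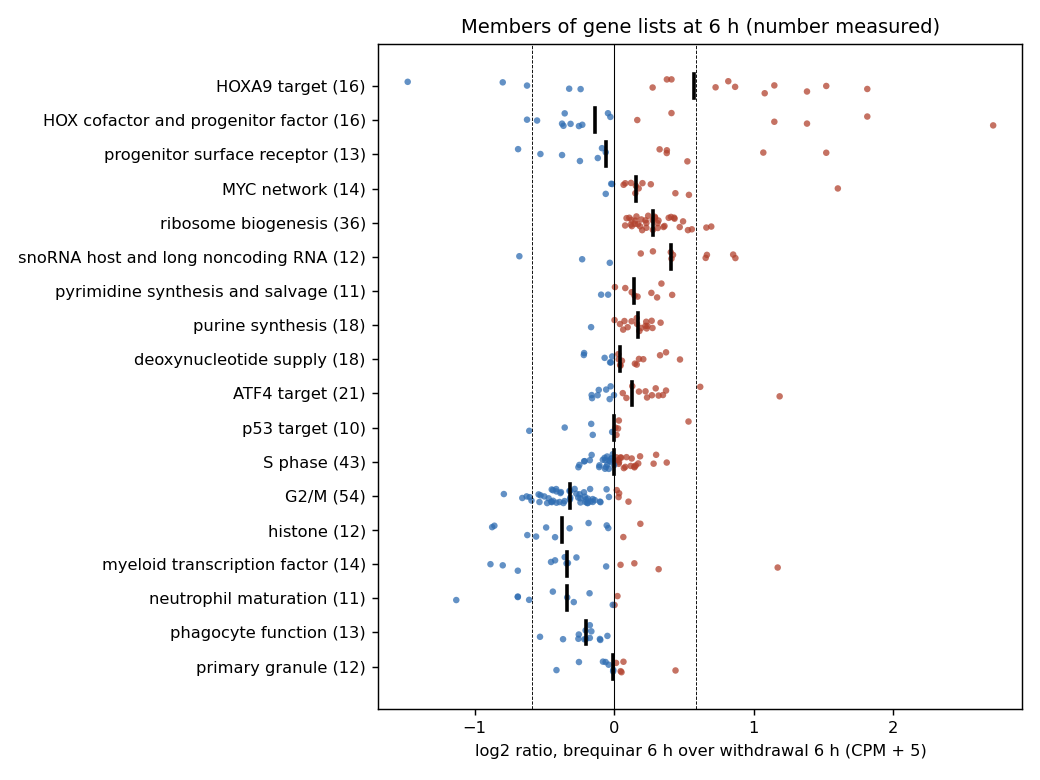
Log2 ratio of brequinar 6 h over withdrawal 6 h (CPM + 5, horizontal axis) for each measured member of 18 gene lists, with the number measured in brackets. Black bars mark list medians and dashed lines 1.5-fold. Members of the HOXA9 target list spread from Pim1 at -1.48 to Sox4 at 1.81, ribosome biogenesis members all lie right of 0, and most G2/M members lie left of it.

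Genes of ribosome production were slightly and widely higher with brequinar. Of the 36 measured genes of ribosome biogenesis, 2 passed 1.5-fold and 0 were lower, the median log2 ratio was 0.28, and the counting interval lay above a ratio of 1 for 32 of them, beside 22.8% of all measured genes. Rrs1, a ribosome assembly factor, stood at 152 CPM with brequinar and 92.0 CPM with withdrawal, and Gnl3, a nucleolar GTPase, at 163 CPM with brequinar and 101 CPM with withdrawal. Their 0 h levels were higher than either, at 216 and 217 CPM for Rrs1 and 261 and 251 CPM for Gnl3 in the brequinar and withdrawal series, so both cultures stood below 0 h. Of the 14 measured members of the MYC network list 1 was higher (Myc) and 0 lower, with a median of 0.15. Srm, which makes spermidine, came next, at 329 CPM with brequinar and 225 CPM with withdrawal. The 38 ribosomal protein genes had a median of 0.07 and none at 1.5-fold.

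Host genes of small nucleolar RNAs showed larger differences from another base. Of 12 measured members of the list of these hosts and other long noncoding RNAs, 4 were higher and 1 lower, with a median of 0.41. Of all measured genes 1.9% were higher and 1.45% lower. Snhg1 stood at 1954 CPM with brequinar and 1068 CPM with withdrawal, a ratio of 1.83 (1.79 to 1.87), and at 436 and 443 CPM at 0 h in the brequinar and withdrawal series. Snhg12 stood at 309 CPM with brequinar and 169 CPM with withdrawal, with 49.3 and 47.0 CPM at 0 h. Both transcripts were thus above 0 h in both cultures and highest with brequinar. Snhg5 had 114 CPM with brequinar and 69.9 CPM with withdrawal. Neat1, the scaffold of nuclear paraspeckles, went the other way, at 293 CPM with brequinar and 472 CPM with withdrawal, beside 82.2 and 70.5 CPM at 0 h.

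Genes of the pathway that brequinar blocks differed little between the 6 h cultures. Dhodh, which encodes its target, was under the minimum, at 17.0 CPM with brequinar and 15.5 CPM with withdrawal, a ratio of 1.10 (0.900 to 1.34). Cad, which carries out the opening steps of pyrimidine synthesis, stood at 37.3 CPM with brequinar and 33.3 CPM with withdrawal, a ratio of 1.12 (0.982 to 1.28). Umps, which makes UMP, stood at 123 CPM with brequinar and 96.0 CPM with withdrawal, a ratio of 1.28 (1.19 to 1.38). Of 11 measured members of the pyrimidine list 0 passed 1.5-fold and the median log2 ratio was 0.15, with Ctps, CTP synthase, the highest at 78.4 CPM with brequinar and 57.5 CPM with withdrawal. The pyrimidine list summed to 956 CPM with brequinar and 864 CPM with withdrawal, both below the 1167 and 1164 CPM of the 0 h cultures. The 18 purine genes had a median of 0.17 and the 18 genes of deoxynucleotide supply one of 0.05. The p53 and ATF4 target lists had few members at 1.5-fold. Of 10 measured p53 targets 0 were higher and 1 was lower, which was Bbc3, the cell death inducer PUMA, at 30.1 CPM with brequinar and 48.5 CPM with withdrawal. Cdkn1a, the CDK inhibitor p21, stood at 17.8 CPM with brequinar and 24.1 CPM with withdrawal. Of 21 measured ATF4 targets 2 were higher and 0 lower, with a median of 0.13. The counting interval lay above a ratio of 1 for 11 of them, beside 22.8% of all measured genes. The ATF4 list summed to 5428 CPM with brequinar and 4957 CPM with withdrawal. Both sums were above the 3247 and 3265 CPM of the 0 h cultures in the brequinar and withdrawal series. Slc7a11, the cystine importer, stood at 104 CPM with brequinar and 42.9 CPM with withdrawal, and Slc7a1, a carrier of cationic amino acids, at 86.6 CPM with brequinar and 54.7 CPM with withdrawal.

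Mitotic and histone genes were lower with brequinar while S phase genes were level. Of 54 measured G2/M genes 0 were higher and 6 lower at 1.5-fold, the median log2 ratio was -0.31, and the counting interval lay below a ratio of 1 for 45, beside 22.2% of all measured genes. Cenpf, a kinetochore protein, stood at 135 CPM with brequinar and 216 CPM with withdrawal, Plk1, a mitotic kinase, at 52.2 CPM with brequinar and 83.3 CPM with withdrawal, and Gas2l3, which links the cytoskeleton in cytokinesis, at 21.0 CPM with brequinar and 39.9 CPM with withdrawal. The 43 measured S phase genes had 0 members at 1.5-fold and a median of -0.004. Of 12 measured histone genes 5 were lower, with a median of -0.37. At 1.5-fold, 1.45% of all measured genes were lower. Hist1h1b, a linker histone, stood at 121 CPM with brequinar and 227 CPM with withdrawal (203 and 205 CPM at 0 h), and H2afx, the histone phosphorylated at DNA breaks, at 145 CPM with brequinar and 267 CPM with withdrawal (245 and 244 CPM at 0 h). For both, the brequinar culture was the one that stood away from 0 h. Clustered histone genes are near copies of each other and mostly lack the poly(A) tail that the chemistry captures, so their single values are uncertain. Among G1 regulators, Cdk6, a cyclin D kinase, was higher, at 1169 CPM with brequinar and 704 CPM with withdrawal, and Cdkn1b, the CDK inhibitor p27, lower, at 22.6 CPM with brequinar and 42.6 CPM with withdrawal. Pcna stood at 69.8 CPM with brequinar and 74.1 CPM with withdrawal, and Mki67 at 112 CPM with brequinar and 145 CPM with withdrawal.

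Cells were also assigned to cell cycle classes from their S phase and G2/M scores, after each was thinned to 3000 UMIs, which kept 1078 brequinar and 1012 withdrawal cells and left out 175 and 240 shallower ones. The S class held 52.7% of brequinar cells (49.7 to 55.7) and 45.1% of withdrawal cells (42.0 to 48.2). The G2/M class held 39.4% (36.5 to 42.4) and 48.5% (45.4 to 51.7). The remaining G1-like cells, with neither score above 0, were 7.89% and 6.42%. Unthinned, the same cells gave 45.6% and 37.3% in the S class, 40.8% and 51.6% in the G2/M class and 13.6% and 11.2% in the G1-like class. In the 0 h cultures the S class held 49.1% in the brequinar series and 45.8% in the withdrawal series, a difference in the same direction. The G2/M class held 50.3% and 53.7% there, also in the same direction, and the G1-like class 0.556% and 0.525%. The 6 h pair and the 0 h pair were scored apart, so class shares are not on a common scale between times. Classes are ranges of a score read from a pool with free RNA, whose part in these shares was not tested.

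Within each class the HOXA9 target list, chosen with earlier results of these data known, had a positive median. The S phase and G2/M lists are not described within classes, since the classes are made from such genes. For the HOXA9 target list the median log2 ratio was 0.98 in G1-like cells, 0.82 in S cells and 0.65 in G2/M cells. In that order 16, 15 and 15 members were measured, so the medians do not all rest on the same genes. The G1-like class held only 85 brequinar and 65 withdrawal cells. The histone list had medians of -0.14, -0.29 and -0.39 in G1-like, S and G2/M cells. H2afx was 1.23-fold lower with brequinar in S cells (1.10 to 1.37) and 1.97-fold lower in G2/M cells (1.84 to 2.12). Hist1h1b was 1.84-fold lower in S cells and 1.82-fold lower in G2/M cells. In G1-like cells both were at lower levels and had ratios above 1 with wide intervals, 1.16 (0.696 to 1.98) for H2afx and 1.34 (0.496 to 3.96) for Hist1h1b. The ratio of Ebf1 was 22.3 (13.6 to 39.3) in G1-like, 14.4 (12.2 to 17.0) in S and 11.3 (9.81 to 12.9) in G2/M cells, and Pim1 was 2.96-fold, 2.70-fold and 2.82-fold lower in them. Ebf1 and Pim1 thus differed in the same direction in each class.

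The differences in the HOXA9 target list and in the 12 highest genes were spread over cells and did not sit in a few of them. In cells of 3000 UMIs the HOXA9 target list summed to 9.003 ± 3.69 UMIs with brequinar and 6.02 ± 3.26 with withdrawal (SD over cells of 1 culture), and at 0 h to 8.62 ± 3.96 in the brequinar series and 8.44 ± 3.71 in the withdrawal series. Medians were 9 with brequinar and 6 with withdrawal. The 12 highest genes summed to a median of 8 UMIs with brequinar and 2 with withdrawal, and the central 90% of cells held 3 to 15 with brequinar and 0 to 5 with withdrawal. The 12 lowest genes summed to a median of 2 UMIs with brequinar and 4 with withdrawal. The central 90% of cells held 0 to 6 and 1 to 10 of them. Chil3, a member of the 12 lowest, sat largely in few cells, with 57.5% of its UMIs after withdrawal in the 2% richest in granule genes. Both sets of 12 were chosen on this contrast, and the HOXA9 target list with earlier results of these data known. The sums thus describe the spread over cells and add nothing on the direction.

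**Figure D4:**
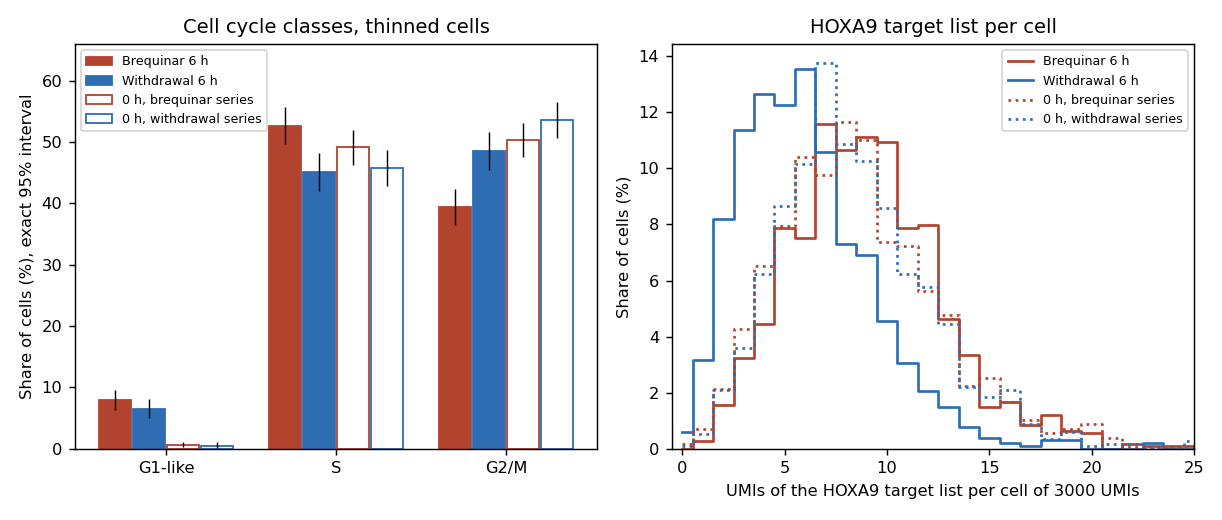
Left panel: share of cells in each cell cycle class (percent, bars with exact 95% intervals) in the 6 h cultures (filled, brequinar red, withdrawal blue) and 0 h cultures (open). The 6 h pair and the 0 h pair were scored apart, so class shares cannot be compared between times. Right panel: share of cells (percent) by UMIs of the HOXA9 target list in a cell of 3000 UMIs, solid for 6 h and dotted for 0 h. The withdrawal 6 h curve lies to the left of the other 3, with a median of 6 UMIs against 9 for brequinar.

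Lists of myeloid maturation had 0 to 4 members at least 1.5-fold lower with brequinar. The neutrophil maturation list had 11 measured members, of which 0 were higher and 4 lower, beside 1.9% and 1.45% of all measured genes. Its median log2 ratio was -0.34. Between the 0 h cultures, before any treatment, the same list had a median of -0.23 in the same direction. Ngp, a granule protein, had 9.30 CPM with brequinar and 26.3 CPM with withdrawal at 6 h, and 14.0 and 22.01 CPM at 0 h in the brequinar and withdrawal series. Stfa1, a cystatin of a family of near copies, had 100 CPM with brequinar and 155 CPM with withdrawal at 6 h, and 92.3 and 134 CPM at 0 h. Chil3 had the other order at 0 h, with 35.4 CPM in the brequinar series and 28.1 CPM in the withdrawal series. The richest 2% of cells held 47.5% of Ngp UMIs with brequinar and 78.6% with withdrawal. The median of the list was -0.17 without those cells, -0.22 in thinned cells and -0.54 with 5% free RNA taken off. The myeloid transcription factor list, which does not rest on such cells, had 1 of 14 members higher and 3 lower (Id1, Id2 and Cebpe), with a median of -0.34. The higher one was Gfi1, a repressor that granulocyte precursors need, at 86.3 CPM with brequinar and 35.5 CPM with withdrawal. Spi1, the PU.1 factor, stood at 178 CPM with brequinar and 246 CPM with withdrawal. The 12 measured primary granule genes had a median of -0.006 and 0 at 1.5-fold. The 13 phagocyte genes had a median of -0.20 and 0 at 1.5-fold, with Fcgr3, an Fc receptor, the lowest at 123 CPM with brequinar and 180 CPM with withdrawal.

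The remaining lists had at most a few called members each, beside 1.9% of all measured genes higher and 1.45% lower. A single called member is given as a gene and not read as a result about its list. Of 11 measured immediate early genes 1 was higher (Jun) and 3 were lower (Dusp2, Zfp36l1 and Fos), with a median of -0.22. Jun and Fos, partners in the AP-1 factor, stood apart: Jun had 21.1 CPM with brequinar and 13.3 CPM with withdrawal, and Fos 29.1 CPM with brequinar and 43.8 CPM with withdrawal. Of 4 measured genes of KIT and MAPK feedback, Dusp6, a phosphatase of ERK, was higher at 72.8 CPM with brequinar and 37.6 CPM with withdrawal, and Pim1 was lower. Of 7 measured estrogen receptor targets 2 were higher and 0 lower: Zfp703, a transcriptional corepressor, had 46.7 CPM with brequinar and 14.5 CPM with withdrawal, and Nrip1, a receptor corepressor, 49.0 CPM with brequinar and 30.9 CPM with withdrawal. Both had 0 h levels near those with brequinar, at 42.0 and 41.0 CPM for Zfp703 and 55.9 and 57.0 CPM for Nrip1. The glutathione list had 1 of 18 higher (Slc7a11), the monocyte list 1 of 6 higher (Ccr2), the B lineage list 1 of 4 higher (Ebf1), the BCL2 family list 1 of 8 lower (Bbc3) and the list of eosinophil, mast cell and basophil genes 1 of 5 lower (Gata2). The G1 regulators had 1 of 17 higher and 1 lower, named above.

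The later cultures show how far the 6 h differences lasted. Of the 112 genes higher with brequinar at 6 h, 56 (50%) were at least 1.5-fold higher at 12 h, 60 (53.6%) at 24 h and 82 (73.2%) at 48 h, and 14 were at least 1.5-fold lower at 24 h. These shares stand beside a growing background, as 13.2%, 29.6% and 37.6% of all measured genes were higher with brequinar at 12, 24 and 48 h. Of the 85 genes lower at 6 h, 47 (55.3%) were lower at 12 h, 10 (11.8%) at 24 h and 31 (36.5%) at 48 h, where 7.33%, 8.05% and 8.57% of all measured genes were lower. At 24 h 39 of the 85 were instead at least 1.5-fold higher with brequinar. The median log2 ratio over all measured genes was itself 0.09 at 12 h, 0.23 at 24 h and 0.34 at 48 h. The fixed 1.5-fold cut was not moved with that median, so later counts of higher genes are raised by it and counts of lower genes reduced.

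Among the 12 highest genes 10 were at least 1.5-fold higher with brequinar at 12, 24 and 48 h as well, and the exceptions were Myc and Myb. Ebf1 had ratios of 14.2 at 12 h, 23.5 at 24 h and 9.17 at 48 h, and Flt3 had 6.67, 14.7 and 5.21. Meis1 had 3.30, 8.21 and 5.78 at the same times. The Myc ratio was 0.839 at 12 h, 0.961 at 24 h and 3.64 at 48 h, since its level after withdrawal was 150 CPM at 12 h, against 126 CPM with brequinar. The Myb ratio was 1.05 at 12 h, 1.66 at 24 h and 3.37 at 48 h. Of the 12 lowest genes, 8 were also lower at 12 h, 4 at 24 h and 5 at 48 h, while 1 at 12 h, 4 at 24 h and 3 at 48 h were at least 1.5-fold higher. The Pim1 ratio was 0.302 at 12 h, 0.864 at 24 h and 2.23 at 48 h, when it stood at 1241 CPM with brequinar and 557 CPM with withdrawal. Snhg1 was within 1.5-fold at 12 h, at 291 CPM with brequinar and 342 CPM with withdrawal, and lower with brequinar at 24 h, at 189 CPM against 458 CPM with withdrawal, a ratio of 0.412. H2afx was farther apart at 12 h, at 63.7 CPM with brequinar and 278 CPM with withdrawal.

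**Figure D5:**
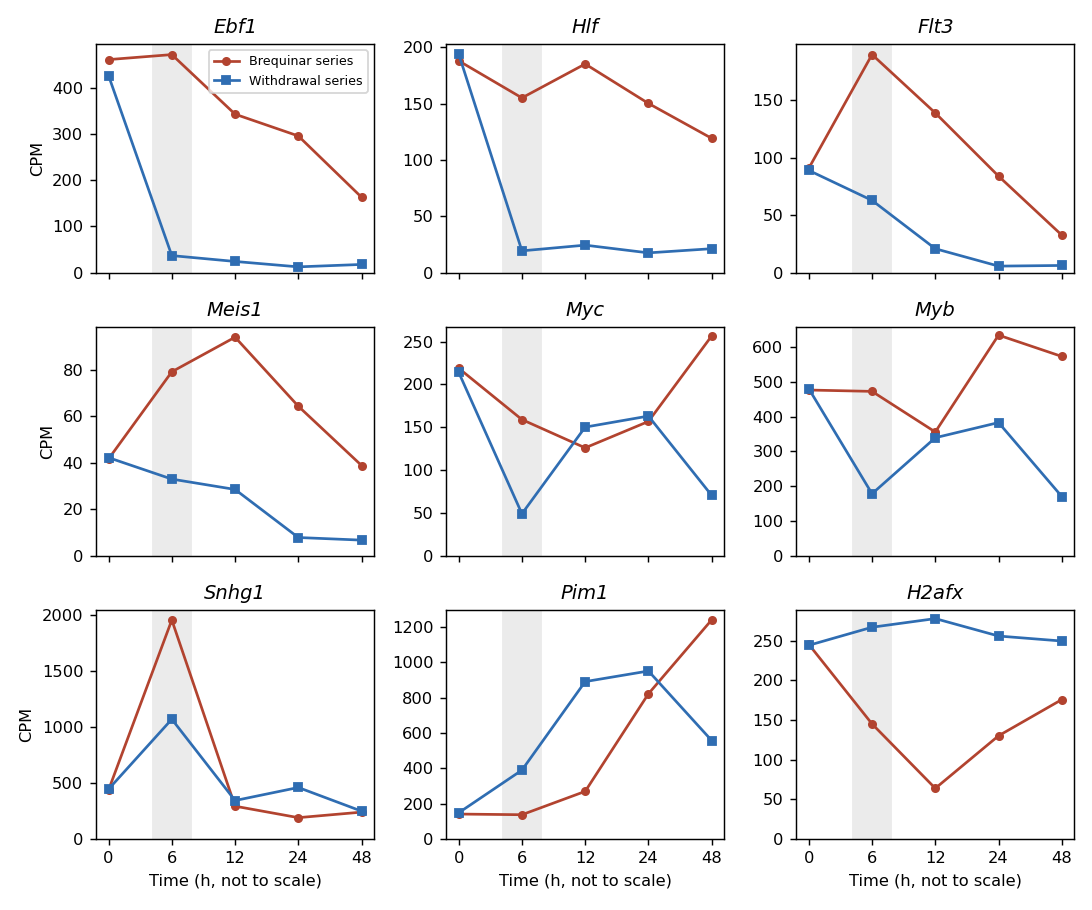
Level (CPM, vertical axis from 0) of 9 genes in the brequinar series (red circles) and the withdrawal series (blue squares) at 0, 6, 12, 24 and 48 h (horizontal axis, not to scale), 1 culture a point, with 6 h shaded. Ebf1, Hlf, Flt3 and Meis1 are higher with brequinar at each time after 0 h, while the lines of Myc, Snhg1 and Pim1 cross.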

How the data were processed

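RNA of single 63.3 cells was captured on the 10x Genomics platform (v3), as the labels' protocols say. Raw UMI counts were deposited by the authors per cell barcode and gene, with both runs in 1 spliced matrix, and a table of barcode calls. Cell Ranger, kallisto 0.46 and bustools 0.39.4 are named in the submitters' processing notes. The genome build is not given in the sources used here. Of 15582 barcodes, 2777 called doublet and 265 called negative by the authors were left out, with no further doublet caller. No barcode was shared by 2 conditions, and barcodes carry no mark of the run. The unspliced matrix was not used.

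Counts were summed per condition and scaled to CPM. Intervals are exact conditional binomial (Clopper-Pearson). Log2 ratios used a pseudocount of 5 CPM. Of 54838 gene IDs, 54723 were given a symbol. Named genes are the 12 highest and 12 lowest log2 ratios at 50 CPM or more in either culture, without mitochondrial and unnamed genes, fixed genes of the pathways, and the largest members of each list described; the exceptions are said to be chosen after their values were seen. The members and the 44 lists were chosen with earlier results of these data known. Cells were scored with scanpy 1.11.5. The ratio step was tested on simulated counts. Alternatives changed scaling, minimum, fold, pseudocount, cells used, cell cycle weighting and free RNA.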

Additional observations from a re-analysis of the deposited data

How the results depend on the processing

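Counts of genes depended on the threshold and minimum. At 2-fold 33 genes were higher with brequinar and 9 lower. With a minimum of 10 CPM 165 were higher and 161 lower, at 50 CPM 60 and 33, and with no minimum beyond 3 counts 1332 and 1876, where counting error sets many ratios. In cells thinned to 3000 UMIs 153 were higher and 170 lower, with fewer counts per gene. Under the 7 other settings 110 to 125 were higher and 73 to 124 lower. The median of ratios shifted log2 ratios by -0.0015. Of 342 recomputed gene ratios 309 moved by no more than the distance from the middle of their counting interval to its end. That interval was taken on the log2 scale and without the pseudocount. Another 33 moved further. Of the 342, 1 changed sign, that of Cad, at 0.15 as counted and -0.14 in thinned cells. Of 430 list medians 420 moved by less than 0.1, and 14 changed sign, in 9 lists whose medians were at most 0.105 from 0. Among them the dendritic cell list (2 genes) was at 0.011 in thinned cells, the KIT and MAPK feedback list at -0.043 in thinned cells, and the G1 regulator and B lineage lists at -0.129 and 0.005 as means over cells. The causes were not tested. Weighting brequinar cells to the class shares of the withdrawal culture gave the G2/M list a median of -0.19, with classes that are made from such genes. Under the other ways of calling cell cycle classes, the S class was larger with brequinar by 4.22 to 8.3 percentage points and the G2/M class differed by -10.8 to -6.67 points, while the G1-like share itself moved to between 12.2% and 13.7% with brequinar and between 9.73% and 11.8% with withdrawal. No paired analysis was possible because each condition is 1 culture, and a run could not be left out because barcodes do not name it. Genes near 20 CPM rest on about 262 counts with brequinar and 242 with withdrawal.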

Other observations

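Secreted factors and genes of oxygen sensing, grouped after their values were seen, were among the genes higher with brequinar at 6 h. Hgf, hepatocyte growth factor, stood at 80.4 CPM with brequinar and 35.5 CPM with withdrawal (103 and 97.2 CPM at 0 h, in the brequinar and withdrawal series). Il6, the cytokine interleukin 6, stood at 132 CPM with brequinar and 82.2 CPM with withdrawal, above the 49.9 and 46.7 CPM of the 0 h cultures. Egln1 and Egln3, oxygen sensors that mark HIF for destruction, had 136 and 121 CPM with brequinar and 87.4 and 76.9 CPM with withdrawal. At 0 h Egln1 had 113 and 116 CPM in the brequinar and withdrawal series and Egln3 had 158 CPM in both. Egln3 was thus below 0 h in both 6 h cultures. Hilpda, a lipid droplet gene that HIF induces, had 33.9 CPM with brequinar and 22.3 CPM with withdrawal. Both levels were below the 46.8 and 45.7 CPM of the 0 h cultures.

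Genes of G protein signaling, also grouped after their values were seen, lay on both sides. Calcrl, a receptor for adrenomedullin and related peptides, had 38.8 CPM with brequinar and 17.6 CPM with withdrawal, both below the 69.5 and 72.4 CPM of the 0 h cultures. Ffar2, a receptor for short-chain fatty acids, had 75.9 CPM with brequinar and 122 CPM with withdrawal, both well above the 13.3 and 14.6 CPM of the 0 h cultures. Rgs18, a regulator of G proteins in blood cells, had 108 CPM with brequinar and 165 CPM with withdrawal, beside 166.3 and 171.5 CPM at 0 h. Creb1, a factor that acts downstream of cyclic AMP, stood at 100 CPM with brequinar and 38.9 CPM with withdrawal, a ratio of 2.58 (2.32 to 2.87), with 60.7 and 63.0 CPM at 0 h.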
